A study of Mus musculus with 24 samples.

Results

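*Mtch1* was examined here together with 9 obesity-associated genes. Of these 10 genes it alone lies in the mapped food intake interval of mouse Chr 17. Its mRNA was lower in the hypothalamus of *cast/cast* than of *b6/b6* mice. The other 9 genes were *Mtch2*, *Fto*, *Tmem18*, *Negr1*, *Gnpda2*, *Sh2b1*, *Bdnf*, *Ntrk2* and *Etv5*, which lie on other chromosomes, and none of them passed the same criterion. The genes were chosen by name, *Mtch1* for its position and its paralog *Mtch2* with the rest because variation at or near their human counterparts has been associated with body mass index or obesity. The study itself had listed *Mtch1* as lower in *cast/cast* mice from these same data, so its call here was known beforehand. All 10 were present among the 13998 genes of the expression table.

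Expression was measured by SAGE-Seq, which counts, gene by gene, short sequence tags cut from near the 3′ ends of mRNAs. The hypothalamus of 24 male F2 mice was profiled, 12 *cast/cast* and 12 *b6/b6* across a segment of Chr 17 (3 to 46 Mb, rounded to whole megabases), with 1 library per mouse. All mice carried *b6/b6* alleles over the remaining genome, and they came from a cross of the B6.CAST-17.1 congenic strain, which has the CAST/EiJ segment on a C57BL/6J background, with C57BL/6J. They were adult, had been tested on a choice of a carbohydrate/protein (C/P) and a fat/protein diet, and were returned to that choice shortly before tissue was taken. The *cast/cast* mice had been picked for high and the *b6/b6* mice for low C/P intake, so that genotype and intake cannot be told apart between the groups. A genotype stands for the whole segment, in which the mapped interval (26 to 45 Mb) is 1 part, and not for any single gene.

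MTCH1 and MTCH2 are related proteins of the outer mitochondrial membrane that belong to the mitochondrial carrier family. MTCH2 is known as a receptor for the cell death protein BID and as an insertase for membrane proteins, and MTCH1 is also known as presenilin-associated protein. Of the remaining genes, *Bdnf* encodes a neurotrophin and *Ntrk2* its receptor TrkB, a pathway whose loss in the hypothalamus leads to overeating, and *Sh2b1* encodes an adaptor of leptin and insulin receptor signalling.

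Each library contains, for a transcript, the 27 bases that begin at its 3′-most CATG, the site cut by NlaIII. The tags expected for the 10 genes were read from GENCODE M21 transcripts (GRCm38) within the transcript ends given in the expression table. This gave 11 tags for the 10 genes, all of them in the 3′ UTR, and 0 of these 11 occurred in a transcript of another gene. Shown are the tags of the paralogs, because a shared tag would mix their counts, and those of *Fto* and *Etv5*, whose values varied together most closely. Capitals mark the NlaIII site.
*Mtch1*: CATGttctcctcagaccatcccctcat
*Mtch2*: CATGagtagcttagtttgaaatgtctt
*Fto*: CATGgtctgcttgtattgctgtgctgt
*Etv5*: CATGcatttgcttcttttccagagtgt

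The *Mtch1* tag lies at chr17:29332226-29332252 on the minus strand, and that of *Mtch2* at chr2:90866466-90866492 on the plus strand. Past the NlaIII site, the tags of the paralogs have the same base at 7 of 23 positions. The *Fto* tag lies at chr8:91668366-91668392 on the plus strand and the *Etv5* tag at chr16:22381408-22381434 on the minus strand. The tags counted by the authors were not analysed here, and whether CAST variants fall in these sites was not tested.

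The libraries held 7754202 to 13082873 tag hits on genes. With 1 tag per transcript the counts do not scale with transcript length, but no order of levels between genes is drawn from them. Of the 24 libraries, 4 stood apart, with a median Spearman correlation to the others more than 3 median absolute deviations below the typical value. They were *cast/cast* mice 4 and 6 and *b6/b6* mice 6 and 12. The main limma differences, the paralog comparison and the correlations between genes and with intake were also computed without them. The fits by edgeR and DESeq2 and those with covariates used all 24 mice. All 4 had a study number, the number each mouse carries in the labels, of 150 or less. This range held 7 *cast/cast* and 5 *b6/b6* mice and the range above it 5 and 7, so values of *Mtch1* and some other members are also given within each range. What order the study numbers follow is not given in the sources used here.

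Of the hypothalamic marker genes, 14 of 16 were in the table, and their summed normalized counts ranged from 11964 to 30460 in the *b6/b6* and from 6126 to 35432 in the *cast/cast* group. The 2 anterior pituitary markers in the table summed to 0 to 469.8 in the *b6/b6* and 0 to 264.8 in the *cast/cast* group. No gene of the 11 marker lists was called by the criterion used below. In these whole tissue samples, fewer cells of a type and less mRNA per cell cannot be told apart.

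*Mtch1* (chr17:29332075-29347904, minus strand) had a normalized count, the tag hits divided by the size factor of the library, of 1427 to 7422 in *b6/b6* mice with a median of 3391. In *cast/cast* mice it ranged from 1051 to 3395 with a median of 1837. The ranges overlapped, with 3 *cast/cast* mice below every *b6/b6* mouse, 6 *b6/b6* mice above every *cast/cast* mouse, and 11 of 12 *cast/cast* mice below the *b6/b6* median. The means were 3760.5 ± 1672 (SD, n = 12) for *b6/b6* and 2032 ± 779 (SD, n = 12) for *cast/cast*, which is a 1.85 fold ratio. On the scale of log2(normalized count + 1), the difference of *cast/cast* minus *b6/b6* was -0.86 with an SE of 0.23 (limma, unadjusted *P* = 0.00101).

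A gene was called when the unadjusted limma *P* was at most 0.01 and the means differed by at least 1.5 fold, which are the limits that the study applied to its DESeq results. *Mtch1* was the 1 called member of 10. By this criterion 1.49% of all 13998 genes were called, 26.8% of the 228 genes of the interval and 0.708% of the 13002 genes outside the segment. Lower expression in *cast/cast* mice accounted for 47 of the 61 calls in the interval, which is 20.6% of its genes, so *Mtch1* shares its call and its direction with many genes around it. Adjusted over all genes, the limma *P* of *Mtch1* was 0.143, against 0.0843 by edgeR and 0.025 by DESeq2 on the recovered tag hits. Both of these tools called *Mtch1* by the same criterion, along with 2.79% of all genes for edgeR and 2.82% for DESeq2. At a limma adjusted *P* of 0.05 or less 0.572% of all genes passed, and *Mtch1* was not among them.

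The libraries that stood apart included high *Mtch1* values. The highest *Mtch1* values of the *b6/b6* group, 7422 and 5748, belonged to mice 12 and 6, and the second highest of the *cast/cast* group, 3333, to mouse 6. Without the 4 libraries the difference was -0.73 with an SE of 0.22 (limma *P* = 0.00293), and *Mtch1* was still called, with a ratio of 1.65, as were 1.37% of all genes. Leaving out any single mouse gave differences from -0.97 to -0.76, all of them called.

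Within the range of study numbers above 150, *Mtch1* was 1427 to 5354 in 7 *b6/b6* mice and 1051 to 3395 in 5 *cast/cast* mice, a difference of -0.92 that was called (limma *P* = 0.00882), as were 1.1% of all genes. At 150 or less, 5 *b6/b6* mice had 2340.1 to 7422 and 7 *cast/cast* mice 1078 to 3333, a difference of -0.86 that was not called (limma *P* = 0.0230), where 3.27% of all genes were. Without the mice that stood apart, this range kept 3 *b6/b6* mice at 2340.1 to 2760 and 5 *cast/cast* mice at 1078 to 2686. The difference was then -0.40 (limma *P* = 0.153). The difference between the 2 ranges was 0.07 with an SE of 0.48 (limma, *P* = 0.891), an interval wide enough to hold a sizeable change in either direction.

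Blood markers moved with *Mtch1*. The 3 of 5 listed blood genes in the table summed to 121 to 4999 in *b6/b6* mice, with a median of 527, and to 105 to 782 in *cast/cast* mice, with a median of 255. After removal of the genotype means, their summed log2 level had a Pearson correlation of 0.62 with *Mtch1* over the 24 mice and of 0.42 over the 20 mice left without the libraries that stood apart. With the blood level as a covariate, a choice made after the data were seen, the *Mtch1* difference was -0.58 with an SE of 0.20 (limma *P* = 0.00863). The other 10 lists had correlations with *Mtch1* between -0.31 and 0.24 over the 24 mice. Over the 20 mice they lay between -0.43 (oligodendrocytes) and 0.39 (endothelium), so that blood at 0.42 did not stand apart there.

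*Mtch2* (chr2:90847154-90866634, plus strand) ranged from 237 to 574 in *b6/b6* mice with a median of 428. In *cast/cast* mice it ranged from 223 to 668 with a median of 401. The groups overlapped almost completely, and the difference of -0.09 with an SE of 0.16 did not pass (limma *P* = 0.595), with an interval of 2 SE from -0.42 to 0.24.

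The paralogs were also compared within each mouse, where a factor that scales the whole library cancels. The log2 level of *Mtch1* minus that of *Mtch2* was 3.07 ± 0.71 (SD, n = 12) in *b6/b6* mice, from 1.71 to 4.03, and 2.31 ± 0.77 (SD, n = 12) in the *cast/cast* group, from 1.45 to 3.89. The means differed by -0.77 (permutation test with 100000 resamples, two-sided, *P* = 0.0202), which is about the size of the SD within a genotype, and the ranges overlapped. It was -0.79 without the libraries that stood apart (permutation *P* = 0.0193). Within the ranges of study number it was -0.51 at 150 or less (exact permutation *P* = 0.284) and -1.04 above 150 (exact permutation *P* = 0.0543), so that it did not pass in either. Over the 24 mice the residuals of the paralogs from their genotype means had a correlation of -0.09.

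**Figure D1:**
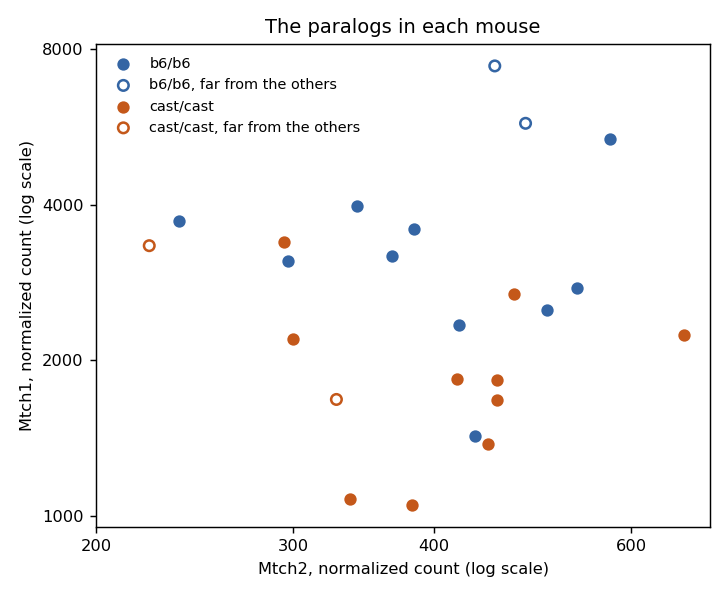
Normalized count of *Mtch1* (vertical, log scale) against *Mtch2* (horizontal, log scale) in each of 24 mice, with *b6/b6* in blue, *cast/cast* in orange and the 4 libraries that stood apart as open circles. The 6 highest *Mtch1* values are all *b6/b6*, whereas *Mtch2* covers 237 to 574 in the *b6/b6* and 223 to 668 in the *cast/cast* group.

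Among the neurotrophin genes, the ligand *Bdnf* ranged from 375 to 924 in *b6/b6* mice with a median of 519 and from 363 to 964 in *cast/cast* mice with a median of 605. The receptor *Ntrk2* ranged from 2176 to 6276 with a median of 4155 in *b6/b6* mice and from 1575 to 6990.2 with a median of 4992 in *cast/cast* mice. Neither gene separated the genotypes. The log2 difference was 0.15 with an SE of 0.15 for *Bdnf* (limma *P* = 0.346) and 0.04 with an SE of 0.24 for *Ntrk2* (limma *P* = 0.872). By range of study number, *Bdnf* differed by 0.44 at 150 or less (limma *P* = 0.0414, adjusted 0.289) and by -0.15 above 150 (limma *P* = 0.527). In the lower range without the libraries that stood apart it differed by 0.44 (limma *P* = 0.0717). The difference between the ranges had a limma *P* of 0.0595 (adjusted 0.380). A tag could be predicted for 1 of the 2 *Ntrk2* transcripts of the table. No GENCODE transcript reached the given 3′ end of the other, so its tag is not known here. How the counts divide between the transcripts was not analysed here.

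*Sh2b1*, the adaptor, was among the most even of the members, with 216 to 387 in the *b6/b6* and 199 to 337 in the *cast/cast* group and medians of 260.3 and 258. Its coefficient of variation was 17.7% in the *b6/b6* and 16.3% in the *cast/cast* group. The difference was -0.06 with an SE of 0.12 (limma *P* = 0.607), and its interval of 2 SE, -0.30 to 0.17, was the narrowest of the 10 genes.

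*Fto*, which encodes an RNA and DNA demethylase of the AlkB family, ranged from 2616 to 12458 in *b6/b6* mice and from 7245 to 16784 in *cast/cast* mice, with nearly equal medians of 9002 and 9026. *Etv5*, a transcription factor of the PEA3 group, ranged from 396 to 2200.1 in *b6/b6* mice with a median of 1458 and from 865 to 2691 in *cast/cast* mice with a median of 1176. For both genes the lowest values of the series were those of *b6/b6* mice 6 and 12, at 2913 and 2616 for *Fto* and 396 and 472 for *Etv5*. The highest value of both came from *cast/cast* mouse 4.

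The sign of both differences changed without the 4 libraries. With them, *Fto* differed by 0.35 with an SE of 0.23 (limma *P* = 0.136) and *Etv5* by 0.26 with an SE of 0.26 (limma *P* = 0.328). Without them, the *Fto* difference was -0.06 (limma *P* = 0.659) and the *Etv5* difference -0.19 (limma *P* = 0.330). In the mice of study number 150 or less, where all 4 fall, *Fto* differed by 0.86 and *Etv5* by 0.85, and above 150 by -0.01 and -0.15. In the lower range without the 4 libraries, the differences were -0.03 for *Fto* (limma *P* = 0.836) and -0.05 for *Etv5* (limma *P* = 0.817). With all mice, the difference between the ranges was 0.87 with an SE of 0.41 for *Fto* (limma *P* = 0.0461, adjusted 0.365) and 1.001 with an SE of 0.47 for *Etv5* (limma *P* = 0.0435, adjusted 0.364). Such an unadjusted *P* under 0.05 was found for 2 of the 10 members and for 13.5% of all genes, and 0 genes passed after adjustment.

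*Negr1*, a neuronal adhesion molecule of the IgLON family, was the most variable member. It ranged from 748 to 4882 in the *b6/b6* and from 466 to 4170 in the *cast/cast* group, with medians of 2003 and 1875 and a coefficient of variation of 55.3% and 63.7%. The difference of -0.13 had an SE of 0.37 (limma *P* = 0.738), so its interval of 2 SE, -0.87 to 0.62, could hold a change as large as that of *Mtch1*. *Gnpda2*, an enzyme that converts glucosamine phosphate to fructose phosphate, ranged from 154 to 336 in the *b6/b6* and from 142 to 391 in the *cast/cast* group and differed by 0.08 with an SE of 0.17 (limma *P* = 0.648).

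*Tmem18*, a protein of the nuclear membrane, was the nearest to the criterion of the 9 genes outside the segment. It ranged from 69.2 to 137 in *b6/b6* mice with a median of 90.4 and from 58.9 to 97.3 in *cast/cast* mice with a median of 78.2. The 3 lowest mice were *cast/cast* and the 5 highest were *b6/b6*. The difference was -0.26 with an SE of 0.14 (limma *P* = 0.0739), and the unadjusted *P* was 0.0488 by edgeR and 0.0410 by DESeq2, with adjusted values of 0.429 by edgeR and 0.387 by DESeq2.

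Of the 9 genes outside the segment, 5 had higher means on the log2 scale and 4 lower ones in *cast/cast* mice, with the signs of *Gnpda2* and *Ntrk2* turning when libraries were rescaled to the same total. Their median difference was 0.04, beside -0.02 for all genes. Their intervals of 2 SE spanned -0.87 to 0.81, and all 9 of them included 0.

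**Figure D2:**
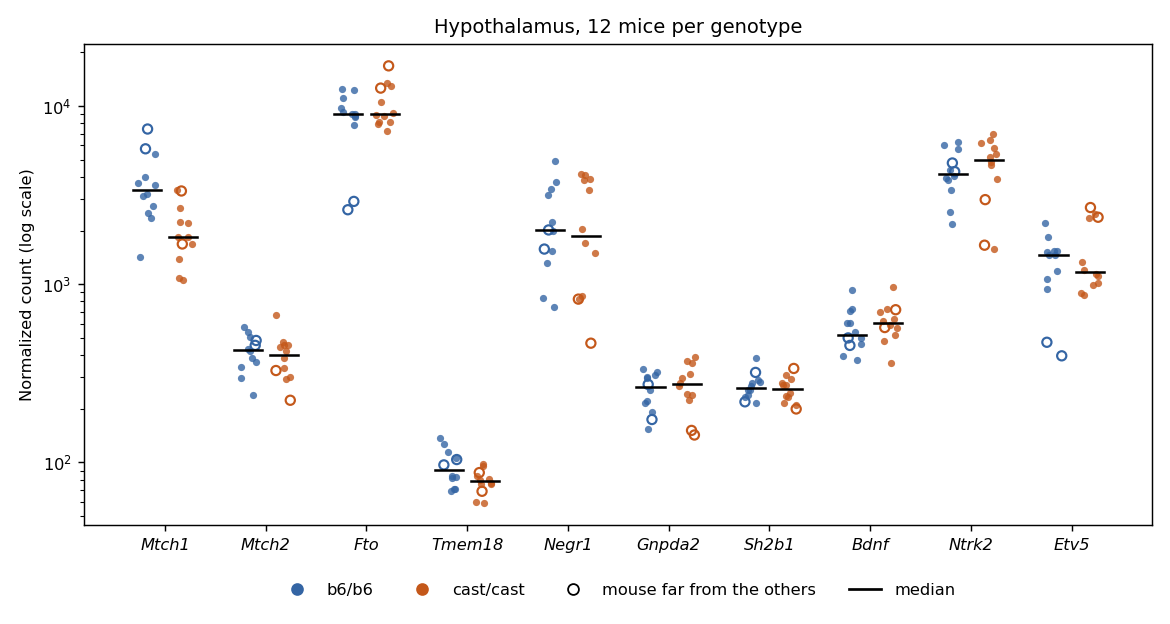
Normalized count (vertical, log scale) of the 10 genes in each mouse, *b6/b6* in blue and *cast/cast* in orange, with the median of 12 mice as a black line and the 4 libraries that stood apart as open circles. The median of *Mtch1* falls from 3391 in *b6/b6* to 1837 in *cast/cast* mice, and the 2 open *b6/b6* circles lie at the bottom of *Fto* and *Etv5*.

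**Figure D3:**
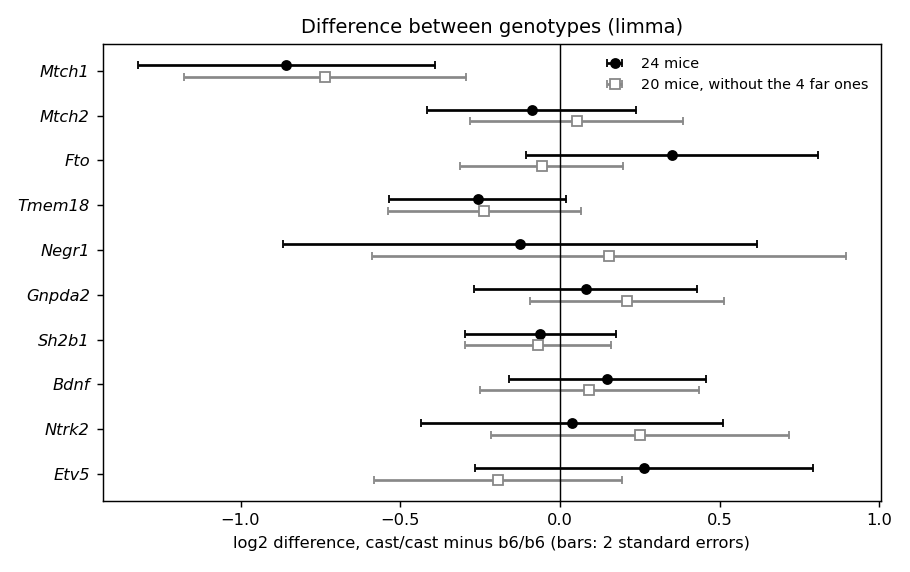
Difference of *cast/cast* minus *b6/b6* on the scale of log2(normalized count + 1) with bars of 2 SE, for 24 mice (filled circles) and for 20 mice without the libraries that stood apart (open squares). The bars of *Mtch1* stay below 0 in both, at -0.86 and -0.73, and those of the other 9 genes cross 0 in both.

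The genes around *Mtch1* did not all move as it did. Of the 17 other tested genes that start within 0.5 Mb of it, 4 were called, 3 lower and 1 higher in *cast/cast* mice. This was near the share over the whole interval, where 26.8% of the genes were called and 20.6% were called lower. All 4 called neighbours were also called without the libraries that stood apart. *4930539E08Rik*, of unknown function, was 54.2 to 198 in the *b6/b6* and 172 to 707 in the *cast/cast* group, and rose by 1.69 on the log2 scale (limma *P* = 5.09e-07, adjusted 0.000125).

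*Ppil1*, which encodes a cyclophilin of the spliceosome, was 5.19 to 85.9 in *b6/b6* mice with a median of 7.06. In *cast/cast* mice *Ppil1* was 0 to 3.81 with a median of 2.70 (difference -2.09, limma *P* = 6.64e-05, adjusted 0.0137). *Fgd2*, an exchange factor for the GTPase CDC42, was 7.08 to 58.9 in the *b6/b6* and 2.54 to 14.2 in the *cast/cast* group (difference -0.99, limma *P* = 0.00204). *Tbc1d22b*, with a domain of Rab GTPase activating proteins, was 12.3 to 59.8 in the *b6/b6* and 0 to 26.4 in the *cast/cast* group (difference -1.47, limma *P* = 0.00170). These 3 genes had low counts, where the added 1 understates a difference on the log2 scale. The median difference of the 17 neighbours was -0.02, beside -0.02 for all genes.

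Near the other 9 members 78 genes were tested by the same rule, and 1 was called, beside 1.49% of all genes and 0.708% of those outside the segment. It was *Lin7c*, a scaffold protein of synapses, 216 kb from *Bdnf*, with 124 to 586 in the *b6/b6* and 88.9 to 195 in the *cast/cast* group (difference -0.71, limma *P* = 0.00302). *Lin7c* missed the minimum ratio without the libraries that stood apart, at a difference of -0.48 (limma *P* = 0.00594). *Apobr* near *Sh2b1*, named here after its values were seen, was then called at 1.11 (limma *P* = 0.00761), as were 1.37% of all genes.

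**Figure D4:**
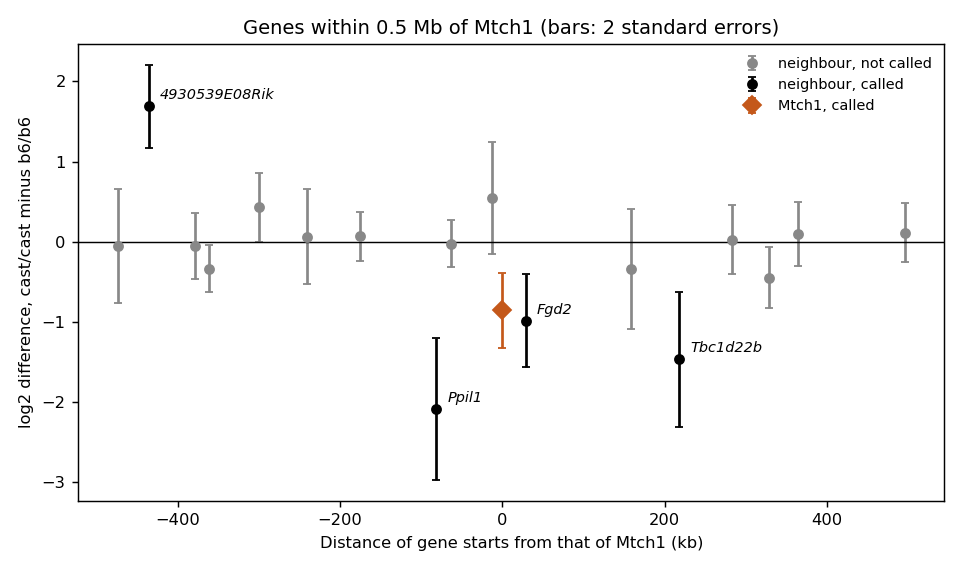
Difference of *cast/cast* minus *b6/b6* (log2, vertical, bars of 2 SE) of *Mtch1* and the 17 other tested genes that start within 0.5 Mb, against the distance of their starts in kb. Called genes are black and *Mtch1* is orange. *4930539E08Rik* stands at 1.69 and *Ppil1* at -2.09, on the same side of *Mtch1*, and 13 neighbours were not called.

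Across mice the members fell into groups that varied together. After removal of the genotype means, *Fto* and *Etv5* had a Pearson correlation of 0.92 over the 24 mice and of 0.85 over the 20 mice without the libraries that stood apart. *Negr1*, *Gnpda2* and *Ntrk2* formed a second group, with correlations of 0.78 to 0.82 over 24 mice and 0.75 to 0.76 over 20 mice. *Mtch1* was highest with *Tmem18*, at 0.57 over 24 and 0.71 over 20 mice, and negative with *Negr1* (-0.52), *Gnpda2* (-0.53) and *Ntrk2* (-0.51).

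The pairs were measured in the same libraries, and what the genes of a pair share beyond that was not tested. How common correlations of this size are among pairs of all genes was not counted, so the groups are not shown to be particular to these members. The first principal component of the residuals of all genes outside the segment held 34.9% of their variance. It had a correlation of 0.92 with *Etv5*, 0.79 with *Fto*, -0.78 with *Negr1*, -0.74 with *Ntrk2*, -0.60 with *Gnpda2* and 0.11 with *Mtch1*. Thus the members of both groups lay along the main axis of variation between libraries, and *Mtch1* did not. A separate fit used as covariates the first 2 components of the log2 levels of these genes, with the genotype means not removed. Such components can hold part of the genotype difference. The *Mtch1* difference was then -0.60 with an SE of 0.19 (limma *P* = 0.00414).

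**Figure D5:**
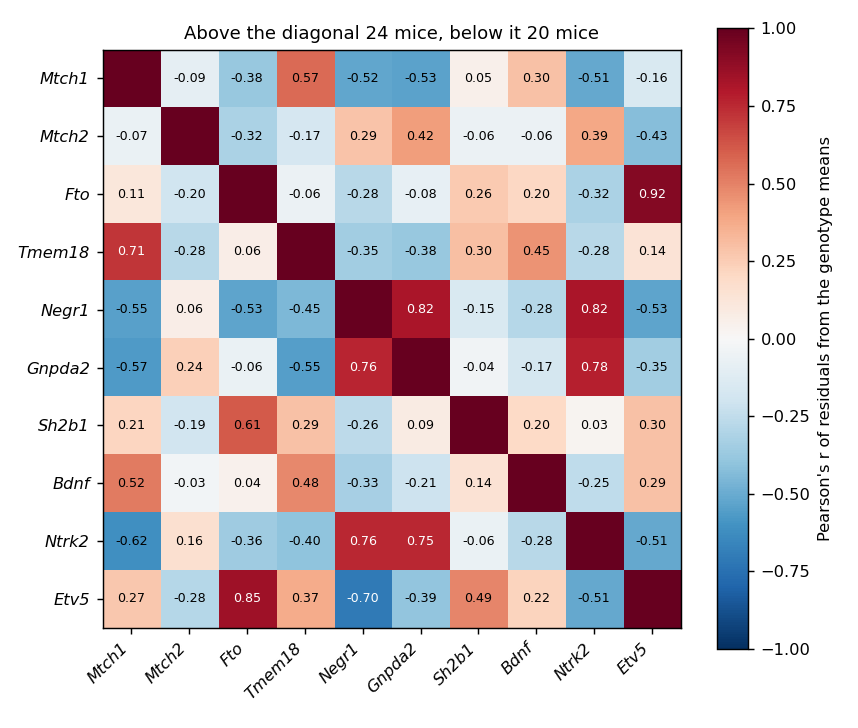
Pearson correlation of the residuals of log2 levels from the genotype means for the 45 pairs of members, with 24 mice above the diagonal and 20 mice without the libraries that stood apart below it. Dark red marks *Fto* with *Etv5* (0.92 and 0.85) and the block of *Negr1*, *Gnpda2* and *Ntrk2*, and 4 of 45 pairs above and 6 of 45 below the diagonal exceed 0.7 in size. The share among pairs of all genes was not counted.

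The genes outside the 10 whose residuals were most like those of *Mtch1* over the 24 mice were *Bcan*, which encodes the brain proteoglycan brevican (0.84), *Wdr18* (0.84) and *Rps6kl1* (0.82). Those most opposed to it were *Tmcc3* (-0.79), *Glrx5*, a mitochondrial glutaredoxin (-0.77), and *Fbxl4*, a mitochondrial F-box protein (-0.76). They were picked as the extremes of a search over many genes, which alone favours large values. Without the libraries that stood apart the values were, in the same order, 0.78, 0.83 and 0.79, and -0.74, -0.63 and -0.67. All 6 genes lie outside the segment, and their own differences between genotypes, -0.21 to 0.25, had limma *P* values of 0.292 to 0.648.

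Because the mice were selected on intake, the relation of each member to intake was taken only within a genotype. C/P intake over 10 d was 27.4 to 41 kcal in *b6/b6* and 77.8 to 106.6 kcal in *cast/cast* mice. Over 10 genes, 2 genotypes and 2 intakes, 40 correlations were computed, of which 6 had an unadjusted permutation *P* under 0.05 for Pearson's r and 0 passed after Benjamini-Hochberg adjustment (lowest adjusted permutation *P* = 0.273). The 40 are not independent, because they share mice, and the same share over all genes was not computed. For *Mtch1* in *b6/b6* mice and C/P kcal, r was -0.72 (permutation *P* = 0.00871, adjusted 0.273) and Spearman's rho -0.58 (permutation *P* = 0.0527, adjusted 0.351), and r was -0.61 without the 2 mice farthest from the median intake. In *cast/cast* mice the same r was 0.27 (permutation *P* = 0.398). *Fto* with C/P kcal in *b6/b6* mice had an r of 0.65 (permutation *P* = 0.0275), which dropped to 0.26 without 2 mice, so that relation rests on those mice. The rest of the 6 were *Gnpda2* with C/P kcal in *b6/b6* mice (0.64) and with total kcal in *cast/cast* mice (0.62), *Tmem18* with C/P kcal in *cast/cast* mice (0.61), and *Mtch2* with total kcal in *b6/b6* mice (-0.58). Without the 2 mice farthest from the median intake these were, in the same order, 0.59, 0.40, 0.71 and -0.39. For this *Mtch2* relation rho was -0.73 (permutation *P* = 0.00975, adjusted 0.351), against a rho of 0.60 in *cast/cast* mice.

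The pathways and families to which the members belong were examined through 8 lists with 179 genes, of which 167 were in the table. Of these 167 genes 2 were called, 1.2%, near the 1.49% of all genes, and their median difference was -0.04. No gene was called among 25 genes of the outer mitochondrial membrane, where *Mtx1*, a component of protein import, was 0.35 (limma *P* = 0.0285) and *Bcl2l1*, a cell death inhibitor, -0.81 (limma *P* = 0.0824). Among 25 genes of neurotrophin signalling none was called either, and the lowest *P* values were those of *Plcg1*, a phospholipase activated by TrkB, at -1.11 (limma *P* = 0.0262) and the adaptor *Grb2* at 0.27 (limma *P* = 0.0852).

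Of 18 genes of RNA methyladenosine and AlkB enzymes, *Ythdc2*, a reader of that mark, was called. It was 35.95 to 167 in the *b6/b6* and 15.2 to 82.0 in the *cast/cast* group, a difference of -0.92 (limma *P* = 0.00415), and at -0.46 it was not called without the libraries that stood apart (limma *P* = 0.0775). None of 16 neural adhesion genes was called, although *Nrcam* at -0.42 had a limma *P* of 0.00397 and *Cntn1* at -0.27 one of 0.0313. *Nrcam* fell short of the minimum ratio.

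In the main fit no call was made among 16 amino sugar genes (*Gne* -0.46, limma *P* = 0.0337, and *Mgea5* -0.30, limma *P* = 0.133) or 17 genes of SH2B adaptors and their receptors (*Irs4* -0.73, limma *P* = 0.0606, and *Sh2b2* -0.54, limma *P* = 0.0733). The same held for 13 genes of PEA3 factors and ERK feedback (*Spry1* -0.32, limma *P* = 0.0725, and *Dusp4* 0.41, limma *P* = 0.149).

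Of 38 other obesity-associated genes, *Nudt3* was called. This nudix hydrolase also lies in the interval, at chr17:27579390-27623452. Its normalized count was 440.0 to 2454 in *b6/b6* mice with a median of 695 and 284 to 551 in *cast/cast* mice with a median of 401. The difference was -0.95 with an SE of 0.22 (limma *P* = 0.000243, adjusted 0.0443), and *Nudt3* was also called without the libraries that stood apart, at -0.61 (limma *P* = 0.000461). In the interval 26.8% of the genes were called. *Cdkal1* of the same list, named here after its values were seen, lies outside the segment and was not called by limma (-0.58, *P* = 0.0550) but was by edgeR (-0.89, *P* = 0.00930) and DESeq2 (-0.90, *P* = 0.00693), and not without the libraries that stood apart (-0.34, limma *P* = 0.140).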

How the data were processed

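Hypothalamus RNA of 24 mice was profiled by SAGE-Seq, 1 library per mouse, and genotype, study number and 10 d intakes were taken from the labels. Per the study's methods, the authors aligned tags to RefSeq mRNA and GRCm38 with SOLiD SAGE software. The deposited signal values are tag hits of a gene over the size factor that DESeq gave its library. The authors also deposited their own comparison, a mean signal, a fold ratio, its log2 value and a p-value with its adjusted form, and these columns were not used.

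All values (100%, tolerance 0.01) were whole multiples of 1 step per library, so tag hits were recovered (7754202 to 13082873 per mouse). Transcripts of 1 gene shared 1 set of values. Genes with a mean under 6.03, the lowest in the table, were not analysed here. Intervals and correlations do not cover errors in assigning tags to genes.

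The main test was limma 3.58.1 (lmFit, eBayes with trend, R 4.3.3) on log2(normalized count + 1) over all 13998 genes, *cast/cast* minus *b6/b6*, without a covariate, with Benjamini-Hochberg adjustment. A call needed *P* at or under 0.01 before adjustment and group means 1.5 fold apart or more. With covariates, the ratio was that of the unadjusted means. edgeR 4.0.16 (quasi-likelihood) and DESeq2 1.42.0 were run on the recovered tag hits. The paralog difference and the correlations with intake were tested by permutation (100000 resamples, or exact). The fits without covariates were tested on simulated data.

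The members, the lists and the rules were chosen with earlier results of these data known. All 10 members were named. From each list the called genes were named, or else the 2 with the lowest *P*, and from the neighbours the called genes. Also named were the 3 genes most and the 3 least correlated with *Mtch1*. Gene positions were those of the table (13277 genes) or of RefSeq (145), and 576 genes without a single position were assigned to no region. Alternatives were other pseudocounts (0.5, 5), a higher minimum mean (20), rescaled libraries, other tools, study number or 2 principal components as covariates, ranges of study number, and mice left out. Chosen after seeing the data were the test between the ranges, the blood covariate, and leaving out the libraries that stood apart in the range of 150 or less and in the correlations among members.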

Additional observations from a re-analysis of the deposited data

How the results depend on the processing

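The *Mtch1* difference kept its direction under all alternatives and was called under all except 2, the mice of study number 150 or less (-0.86) and these without the libraries that stood apart (-0.40). In the fits with covariates the ratio was that of the unadjusted means, so the call could fail only on *P*. The *Mtch1* difference there was -0.89 with study number, -0.60 with 2 principal components and -0.58 with the blood level. Without single mice it ran from -0.97 to -0.76. Accordingly 0 members were called at 150 or less, and 0 at an adjusted *P* of 0.05 (limma). Without single mice 1 member was called each time. Over all genes 208 were called by limma, 391 by edgeR, 395 by DESeq2, and 458 at 150 or less.

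No call was made for the other 9 genes under any of the fits, but small differences changed sign. Without the libraries that stood apart these were *Mtch2* (0.052), *Fto* (-0.057), *Negr1* (0.15) and *Etv5* (-0.19). Above study number 150 they were *Mtch2* (0.12), *Fto* (-0.013), *Negr1* (0.21), *Bdnf* (-0.15) and *Etv5* (-0.15), and at 150 or less *Gnpda2* (-0.078) and *Ntrk2* (-0.073). At 150 or less without the libraries that stood apart they were *Fto* (-0.030), *Tmem18* (0.064) and *Etv5* (-0.045). With 2 principal components they were *Fto* (-0.012), *Gnpda2* (-0.032) and *Etv5* (-0.050), and with rescaled libraries *Gnpda2* (-0.011) and *Ntrk2* (-0.053). *Negr1* was 0.0019 by edgeR and 0.0066 by DESeq2. Without single mice *Negr1* ran from -0.25 to 0.052 and *Ntrk2* from -0.045 to 0.17.

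The paralog difference was -0.51 at 150 or less and -1.04 above 150, and -0.91 to -0.68 without single mice. List genes called went from 2 to 4 by edgeR, by DESeq2, with study number as covariate and at 150 or less, and to 1 at the adjusted *P*. Named after their values were seen, the genes added were *Cdkal1* and *Plcg1* (-1.61, edgeR *P* = 0.00465) by edgeR and *Cdkal1* and *Irs4* (-1.07, DESeq2 *P* = 0.00524) by DESeq2. Without the libraries that stood apart the number stayed at 2, with *Amdhd2* (-0.65, limma *P* = 0.00894) in place of *Ythdc2*. Neighbours called went from 5 to 8 by edgeR, to 3 with a minimum mean of 20 and with 2 principal components, and to 2 above 150 and at the adjusted *P*. Without single mice these stayed at 2 and 5. The causes were not tested. No correlation with intake passed adjustment under any alternative. No paired analysis was possible because the labels give no number shared between genotypes. With 12 mice per genotype, the precision differed between genes, with intervals of 2 SE from -0.30 to 0.17 for *Sh2b1* and from -0.87 to 0.62 for *Negr1*.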
